A study of Mus musculus with 6 samples.

Results

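The genes of the nucleolar machinery that makes ribosomes were examined in early LPre-B (early large pre-B) cells, proliferating precursors of B cells in mouse bone marrow. The group held 40 genes, chosen by name for their role, with earlier results of these data known, out of 13426 genes measured, and every one of the 40 had a row. They were the core proteins of small nucleolar ribonucleoprotein particles (snoRNPs), nucleolar chaperones, RNA polymerase I subunits, and assembly factors of the small (40S) and large (60S) ribosomal subunits. RNA was sequenced from cells of 3 Ctrl libraries (*Upf1* Flox/Flox, *Mb1* +/+) and 3 Upf1-cKO libraries (*Upf1* Flox/Flox, *Mb1* Cre/+) of adult mice on a C57BL/6 background. All 6 libraries thus carried floxed *Upf1*, with loxP sites around internal exons, and in the Upf1-cKO mice Cre was expressed from one allele of the B lineage locus *Mb1* (*Cd79a*). Since Ctrl mice had no Cre, loss of *Upf1* cannot be told apart from Cre itself or from the altered *Cd79a* allele, whose own level was 221 ± 11.4 normalised reads in Ctrl and 73.3 ± 1.85 in Upf1-cKO (SD, n = 3 each).

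Ribosomal RNA is transcribed in the nucleolus by RNA polymerase I and is trimmed, folded and modified there while ribosomal proteins join it. Box C/D snoRNPs guide 2′-O-methylation and box H/ACA snoRNPs guide pseudouridylation of that RNA, and most of the guide snoRNAs in mammals are cut out of introns of other genes, often genes that themselves make ribosomes. The helicase UPF1 is required by nonsense-mediated mRNA decay (NMD), a pathway that removes transcripts with a stop codon well upstream of an exon junction, and mature RNAs left over from spliced snoRNA hosts are among its known substrates. The comparison of Upf1-cKO with Ctrl cells asks which transcripts differ between them in cells sorted as this stage. The study found V segments joined at the *Igh* locus in Ctrl early LPre-B cells but not in Upf1-cKO ones. It proposes that lower cell cycle genes there probably follow from a missing pre-B cell receptor. An effect of UPF1 on a transcript and this difference in cell state cannot be told apart here.

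Values are given as normalised reads, which are reads per gene (plus 0.5) per 1e6 of the effective library size. Reads recovered from the values of the 13426 genes came to between 9732498 and 11006834 per library. The members had between 133 and 23539 reads per library. The row of the targeted gene did not fall in the libraries labelled cKO. *Upf1* was at 241 ± 32.3 in Ctrl and 297 ± 12.7 in Upf1-cKO (SD, n = 3 each). The log2 fold change was 0.31 (SE 0.089, limma adjusted p = 0.00696) and came to 0.19 without Ctrl replicate 2. The row was not called after centring each library on its median (0.20, limma adjusted p = 0.0645) or without limma's intensity trend (0.31, 0.0685). Values per gene cannot show whether the floxed exons were lost. At the protein level, the study reports loss of UPF1 in pro-B and early LPre-B cells of Upf1-cKO mice. All 10 B cell progenitor markers had rows and summed to between 2495 and 2714 normalised reads in Ctrl and between 2548 and 2676 in Upf1-cKO, with 3 called higher, among them *Rag1* (log2 fold change 1.55), and 2 lower, *Cd79a* (-1.58) and *Ptprc* (-0.84). All 8 neutrophil markers had rows too, with 4 called higher in Upf1-cKO, and summed to 123 in Ctrl replicate 1, to 17.9 and 14.0 in the other Ctrl libraries, and to between 329 and 462 in Upf1-cKO. Of 7 T and NK cell markers 2 had rows (summed level 1.17 to 1.59 in Ctrl, 3.79 to 5.27 in Upf1-cKO), the CD3 chains, *Cd4* and *Cd8a* having none. Of 6 erythroid markers 2 had rows (2.23 to 2.53 against 1.53 to 1.95), the globin genes having none, and of 6 macrophage and monocyte markers 3 had rows (5.58 to 11.8 against 6.62 to 9.42).

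Ctrl replicate 1 stood apart in these genes. It was the lowest of the 3 Ctrl libraries in 37 of the 40 members, whereas it was lowest in 34.2% of all genes. The median member lay 0.24 below the Ctrl mean on the log2 scale in that library, and 0.15 and 0.09 above it in Ctrl replicates 2 and 3, while the median of all genes lay within 0.02 of the Ctrl mean in every library. It was also the Ctrl library with the most neutrophil marker reads, and the part of these reads in the members' values was not tested.

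**Figure D1:**
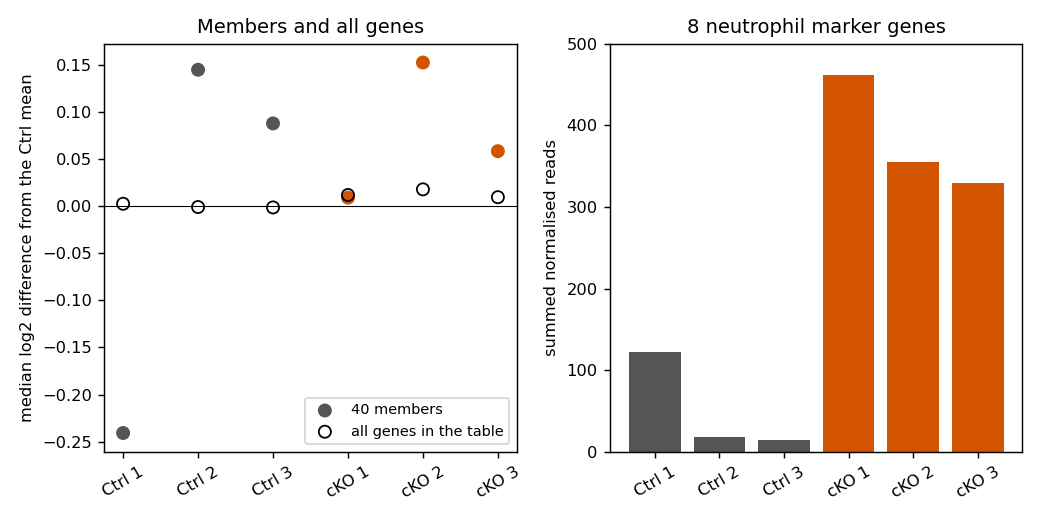
Left, the median log2 difference of the 40 members (filled) and of all genes in the table (open) from the Ctrl mean, for each library. Right, the summed normalised reads of 8 neutrophil markers. Ctrl replicate 1 lies at -0.24 for the members and holds 123 neutrophil marker reads, and the Upf1-cKO libraries hold 329 to 462.

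Among the 40 members 10 were higher in Upf1-cKO, 9 were lower and 21 were not called (limma, Benjamini-Hochberg adjusted p below 0.05 over 13426 genes). Among all genes, 27.7% were called higher, 25.0% lower and 52.7% in either direction, so the members were called about as often as any other genes. Their median log2 fold change was 0.09, against 0.01 for all genes, and only *Nop56* and *Rrp1b* differed by at least 1 on the log2 scale. The Ctrl and Upf1-cKO libraries did not overlap in 10 members that lay higher and 6 that lay lower, where the background over all genes was 30.9% and 28.0%. Without Ctrl replicate 1, the same 10 members were called higher and 17 lower, and the median was -0.069. The members added to the lower side were *Fbl*, *Nhp2*, *Dkc1*, *Ncl*, *Heatr1*, *Ddx10*, *Ltv1* and *Nop2*. The split also moved with scaling: 19 higher and 2 lower were called after scaling to total reads, which put the median of all genes at 0.19, and 9 and 12 after centring each library on its median, which put it at -0.10 and the members' median at -0.02. All genes split into 5172 higher and 1936 lower after the first scaling and into 2992 and 4355 after the second, so their split moved in the same directions. *Nop10* and *Npm3* were the 2 still called lower after scaling to total reads, so that the other 7 members called lower lost the call there. In these bulk samples a lower share of cells that express a gene and less RNA per cell cannot be told apart.

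**Figure D2:**
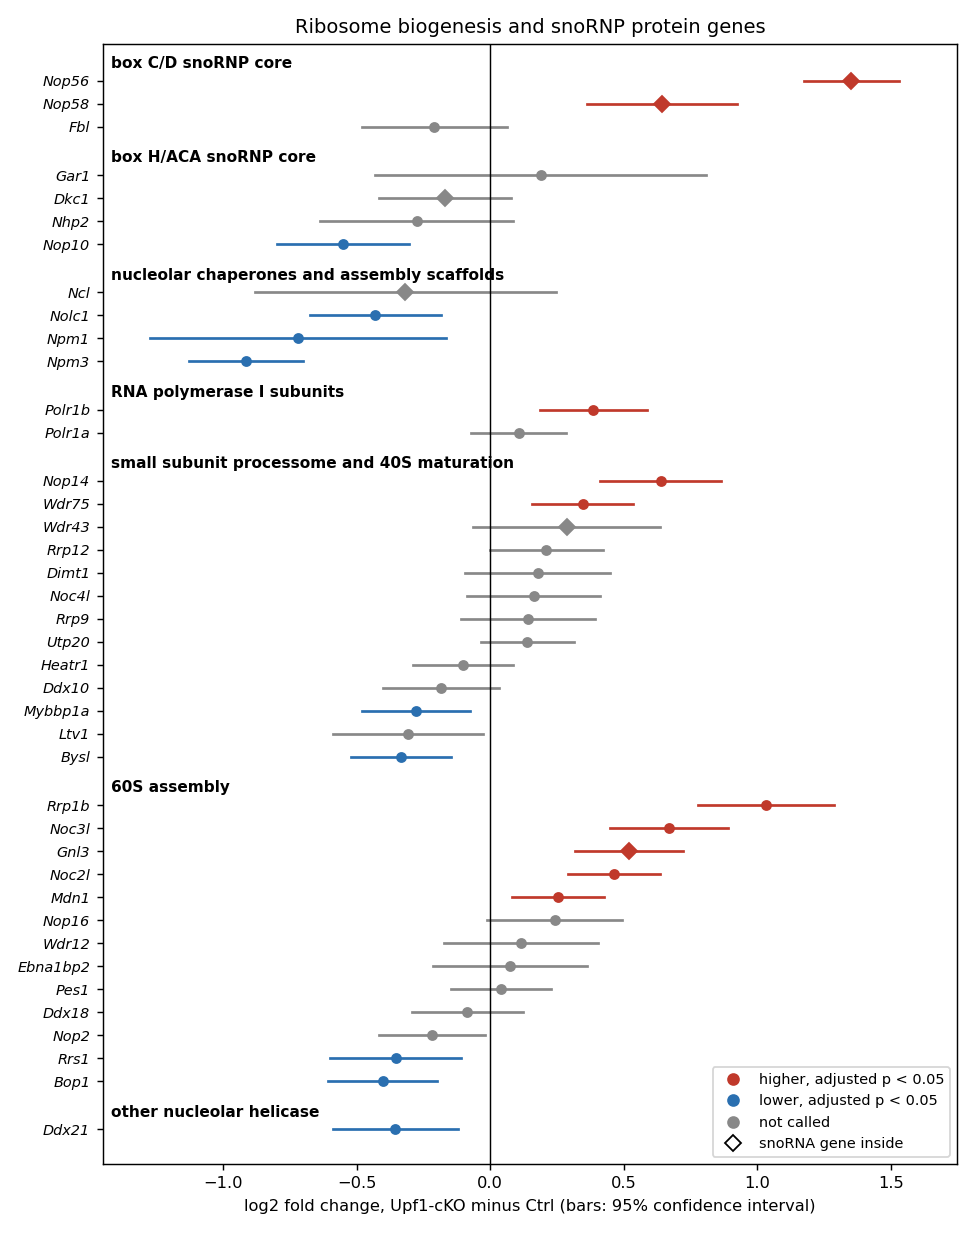
Log2 fold change of each of the 40 members (Upf1-cKO minus Ctrl, on the log2(value + 1) scale) with its 95% confidence interval, grouped by role. Red and blue mark members called higher (10) and lower (9), grey those not called (21), and diamonds the 6 members with a snoRNA gene inside. The 4 chaperones and scaffolds all lie below 0, and *Nop56* lies farthest above it at 1.35.

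The 3 protein genes of the box C/D particle moved apart. *Nop56* and *Nop58*, which code for the paired scaffold proteins of the particle, rose, and *Fbl*, which codes for fibrillarin, its 2′-O-methyltransferase, was not called. *Nop56* (Entrez ID 67134, chr2:130274367-130279313, + strand, GRCm38) had 164, 208 and 201 normalised reads in Ctrl replicates 1 to 3 and 491, 479 and 490 in Upf1-cKO. Every Upf1-cKO library was above every Ctrl library. The log2 fold change was 1.35 (SE 0.084, limma adjusted p = 3.36e-10), the highest of the 40 members and above 96.3% of all genes. It lay between 1.25 and 1.42 whichever library was left out, and between 1.24 and 1.56 under median centring and total read scaling.

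*Nop58* (Entrez ID 55989, chr1:59684961-59711510, + strand) had 181, 232 and 275 normalised reads in Ctrl and 339, 383 and 341 in Upf1-cKO, again without overlap. The log2 fold change was 0.64 (SE 0.13, limma adjusted p = 0.00133). *Fbl* had 94.5, 134 and 133 in Ctrl and 99.1, 115 and 94.6 in Upf1-cKO. These ranges overlapped, with a log2 fold change of -0.21 (95% confidence interval -0.48 to 0.06, adjusted p = 0.18), and without Ctrl replicate 1 it was called lower at -0.37 (adjusted p = 0.00152). Per kilobase of annotated exon, the scale on which levels of different genes can be set side by side, *Nop56* went from 46.6 to 119, *Nop58* from 21.3 to 33.0 and *Fbl* from 28.6 to 24.5. The exon lengths behind these levels count annotated retained introns, so they understate the level of genes with many such transcripts.

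The snoRNA genes that lie inside *Nop56* and *Nop58* are printed here because these are the 2 most raised hosts among the members. Positions are on GRCm38 and sequences are from GENCODE M21. Capitals mark TGATG, the core of box C, in the first 20 bases, CTGA, box D, in the last 20 bases, or, in Gm24451, which holds neither box, ACA at 3 bases from the 3′ end, a feature of the H/ACA class. *Nop56* holds 5 snoRNA genes.
Snord110 (chr2:130275506-130275573, + strand): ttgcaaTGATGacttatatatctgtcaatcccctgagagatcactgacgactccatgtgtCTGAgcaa
Gm24451 (chr2:130276237-130276369, + strand): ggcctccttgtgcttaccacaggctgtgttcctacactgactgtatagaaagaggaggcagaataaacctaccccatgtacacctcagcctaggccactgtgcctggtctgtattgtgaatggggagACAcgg
Gm23187 (chr2:130277195-130277280, + strand): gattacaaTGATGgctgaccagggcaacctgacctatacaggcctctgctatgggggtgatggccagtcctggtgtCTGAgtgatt
Gm23650 (chr2:130277697-130277766, + strand): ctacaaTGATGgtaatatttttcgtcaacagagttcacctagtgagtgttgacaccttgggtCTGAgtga
Snord57 (chr2:130278016-130278087, + strand): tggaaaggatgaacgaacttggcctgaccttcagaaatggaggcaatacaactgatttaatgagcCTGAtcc
*Nop58* holds 4 snoRNA genes.
Snord70 (chr1:59691934-59692020, + strand): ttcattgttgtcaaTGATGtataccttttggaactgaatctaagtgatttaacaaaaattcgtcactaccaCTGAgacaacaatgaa
Gm26293 (chr1:59692509-59692592, + strand): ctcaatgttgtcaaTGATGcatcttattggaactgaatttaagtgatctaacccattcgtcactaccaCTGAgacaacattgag
Gm26287 (chr1:59704258-59704338, + strand): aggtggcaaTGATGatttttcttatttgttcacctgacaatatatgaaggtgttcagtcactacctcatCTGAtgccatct
Snord11 (chr1:59704790-59704873, + strand): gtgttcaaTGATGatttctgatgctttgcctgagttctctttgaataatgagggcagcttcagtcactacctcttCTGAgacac
Of the 16 snoRNAs of at most 110 bases inside any member, 13 held both boxes on the transcribed strand (81.25%), against 338 of 454 GENCODE snoRNAs of 60 to 100 bases (74.4%).

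Ratios between subunits of one particle were taken within each library, where library scaling and gene length cancel from the difference between groups. On the log2 scale, *Nop56*/*Nop58* was -0.14, -0.16 and -0.45 in Ctrl and 0.53, 0.32 and 0.52 in Upf1-cKO. The sign thus differed between the groups, with *Nop58* above *Nop56* in reads in every Ctrl library and below it in every Upf1-cKO library, a difference of 0.71. *Nop56*/*Fbl* went from 0.67 ± 0.10 to 2.23 ± 0.17 (SD, n = 3 each), a difference of 1.56, and *Nop58*/*Fbl* from 0.92 ± 0.13 to 1.78 ± 0.06, a difference of 0.85. The groups did not overlap in any of these 3 ratios, and each had an exact two-sided permutation p of 0.1, the smallest that 20 assignments of 6 libraries allow (0.15 after Benjamini-Hochberg adjustment over the 6 ratios tested).

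Of the 4 protein genes of the box H/ACA particle 1 fell and 3 were not called. *Nop10*, which codes for a small subunit bound to the catalytic protein, had 37.3, 50.7 and 50.5 normalised reads in Ctrl and 29.6, 32.7 and 30.4 in Upf1-cKO. Every Upf1-cKO library was below every Ctrl library, with a log2 fold change of -0.55 (SE 0.12, limma adjusted p = 0.000663), and the call held whichever library was left out. *Dkc1*, which codes for dyskerin, the pseudouridine synthase, had 139, 197 and 195 in Ctrl and 150, 164 and 153 in Upf1-cKO (log2 fold change -0.17, 95% confidence interval -0.41 to 0.08). *Nhp2*, for a protein that binds the guide RNA fold, had 92.7, 150 and 130 in Ctrl and 111, 99.1 and 92.4 in Upf1-cKO (-0.28, -0.64 to 0.09).

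In both genes Ctrl replicates 2 and 3 lay above every Upf1-cKO library, while Ctrl replicate 1 lay below them for *Dkc1* and among them for *Nhp2*. Without Ctrl replicate 1 both were called lower, at -0.33 (adjusted p = 0.000874) and -0.47 (adjusted p = 0.000227), and *Nhp2* was also called lower by DESeq2 on all libraries (-0.32, adjusted p = 0.0441). *Gar1*, for another subunit bound to dyskerin, had 25.0, 35.9 and 47.7 in Ctrl and 33.0, 50.5 and 38.5 in Upf1-cKO, and its interval of -0.43 to 0.81 was the widest among the members that were not called. The ratio *Dkc1*/*Nop10* was 1.91 ± 0.04 in Ctrl and 2.30 ± 0.005 in Upf1-cKO, without overlap (difference 0.38, exact permutation p = 0.1), whereas *Dkc1*/*Gar1* (-0.36, p = 0.2) and *Dkc1*/*Nhp2* (0.11, p = 0.4) overlapped between the groups in the same exact test.

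**Figure D3:**
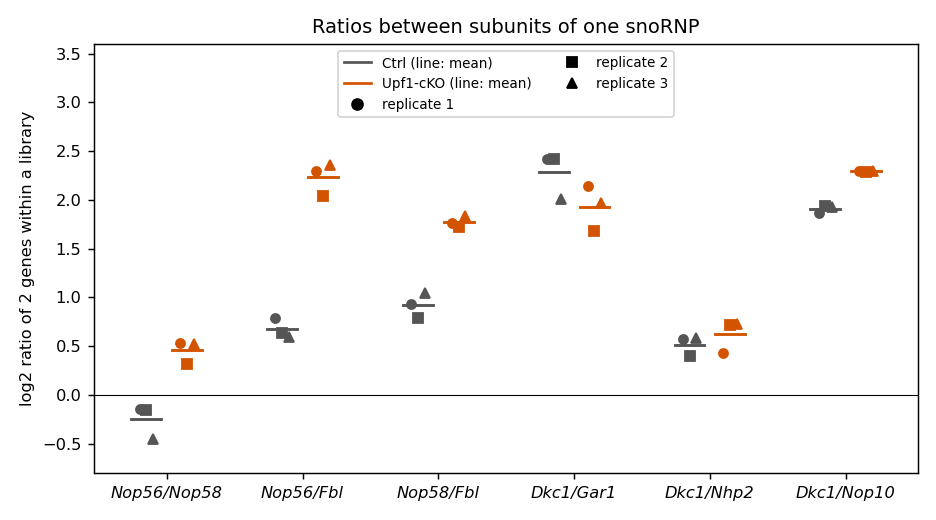
Log2 ratio of the normalised reads of 2 subunits of a snoRNP in each library, with symbols for replicates 1 to 3 and lines for the means of Ctrl (grey) and Upf1-cKO (orange). The groups do not overlap in the 3 box C/D ratios and in *Dkc1*/*Nop10*, and *Nop56*/*Nop58* is below 0 in all Ctrl libraries and above 0 in all Upf1-cKO libraries.

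Of the 4 genes of nucleolar chaperones and scaffolds, *Npm3*, *Nolc1* and *Npm1* were called lower in Upf1-cKO and *Ncl* was not called. After scaling to total reads *Npm3* was the only one of them called. *Npm3*, a nucleoplasmin family member, had 64.5, 73.2 and 57.7 normalised reads in Ctrl and 33.2, 32.7 and 36.0 in Upf1-cKO. This was the largest fall of the 40 members, with no overlap and a log2 fold change of -0.92 (SE 0.10, limma adjusted p = 5.66e-07). *Npm3* shares 7.08% of its exon bases with Gm15491 on the opposite strand, which had no row, and reads were assigned without strand. *Nolc1*, which codes for a scaffold that binds snoRNPs of both classes, had 165, 238 and 208 in Ctrl and 138, 164 and 147 in Upf1-cKO (log2 fold change -0.43, SE 0.11, adjusted p = 0.00605), and was at -0.23 after scaling to total reads (adjusted p = 0.108).

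*Npm1*, which codes for nucleophosmin, an abundant histone and pre-ribosome chaperone, had 607, 907 and 1016 normalised reads in Ctrl and 459, 573 and 476 in Upf1-cKO. The groups did not overlap, but the Ctrl libraries were widely spread, and the log2 fold change of -0.72 (SE 0.22) had an adjusted p of 0.0399 by limma. The call was lost without Ctrl replicate 2 (-0.65, adjusted p = 0.144), Ctrl replicate 3 (-0.57, 0.0746), Upf1-cKO replicate 1 (-0.66, 0.0732) or Upf1-cKO replicate 3 (-0.68, 0.0796), and after scaling to total reads (-0.52, 0.101). *Ncl*, which codes for nucleolin, a pre-ribosomal RNA binding protein, had 1415, 1901 and 2337 in Ctrl and 1366, 1751 and 1356 in Upf1-cKO. The ranges overlapped (-0.32, 95% confidence interval -0.88 to 0.25), and without Ctrl replicate 1 it was called lower at -0.51 (adjusted p = 0.0452). Per kilobase of exon, *Npm1* and *Ncl* were the 2 most abundant of the 40 members in both groups, at 316 and 185 in Ctrl and 189 and 146 in Upf1-cKO.

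**Figure D4:**
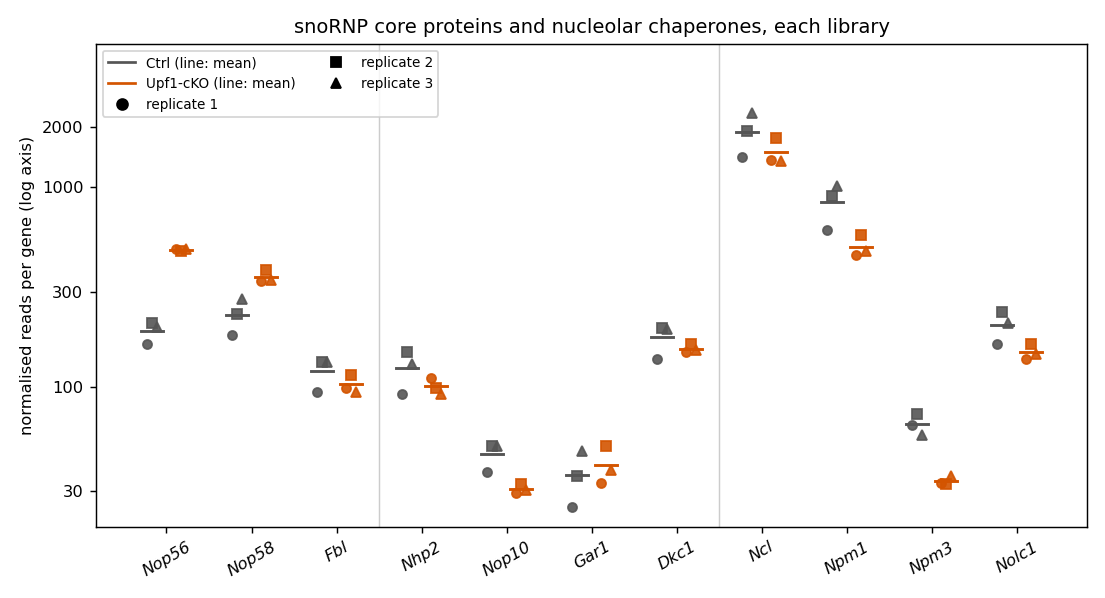
Normalised reads (log axis) of the box C/D proteins, the box H/ACA proteins and the chaperones and scaffolds in each library, with symbols for replicates 1 to 3 and lines for the means of Ctrl (grey) and Upf1-cKO (orange). Replicate 1 is the lowest Ctrl library in every gene shown but *Npm3*, and the groups separate upward for *Nop56* and *Nop58* and downward for *Nop10*, *Npm1*, *Npm3* and *Nolc1*.

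RNA polymerase I was represented by its 2 largest subunits. *Polr1b* had 72.5, 95.6 and 82.0 normalised reads in Ctrl and 112, 109 and 104 in Upf1-cKO, all above Ctrl (log2 fold change 0.39, SE 0.095, limma adjusted p = 0.00216). *Polr1a*, for the largest subunit, had 109, 134 and 117 in Ctrl and 126, 132 and 128 in Upf1-cKO, which overlapped (0.11, 95% confidence interval -0.07 to 0.28).

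Of 13 members of the small subunit processome and 40S maturation, 2 rose, 2 fell and 9 were not called, with a median log2 fold change of 0.14. *Nop14*, for a processome component, had 47.9, 57.0 and 64.0 normalised reads in Ctrl and 78.0, 97.0 and 88.8 in Upf1-cKO, without overlap (log2 fold change 0.64, SE 0.11, limma adjusted p = 6.73e-05). *Wdr75*, for a subunit of the complex that binds the start of the transcript, had 55.3, 65.7 and 65.3 in Ctrl and 78.0, 79.5 and 79.5 in Upf1-cKO (0.35, adjusted p = 0.00334). *Bysl*, for bystin, a late 40S maturation factor, had 70.5, 73.6 and 68.4 in Ctrl and 59.1, 57.6 and 51.5 in Upf1-cKO (-0.33, adjusted p = 0.00409). All 3 separated the groups. However, *Bysl* shares 9.37% of its exon bases with *Ccnd3* on the opposite strand (-0.80), and *Nop14* shares 5.27% with Gm15522, which had no row. Reads were assigned without strand, so reads of one gene in each pair cannot be told from reads of the other there.

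*Mybbp1a* was called lower (-0.28, adjusted p = 0.022) although its groups overlapped, and lost the call without Ctrl replicate 2 (-0.16, adjusted p = 0.118), Upf1-cKO replicate 2 (-0.29, 0.052) or Upf1-cKO replicate 3 (-0.24, 0.104), and without the intensity trend in limma (-0.28, 0.122). The 9 that were not called were *Wdr43*, *Rrp12*, *Dimt1*, *Noc4l*, *Rrp9*, *Utp20*, *Heatr1*, *Ddx10* and *Ltv1*, and lay between -0.31 (*Ltv1*, a 40S export factor) and 0.29 (*Wdr43*). *Dimt1*, the 18S rRNA dimethyltransferase gene and the lowest member per kilobase of exon at 3.8 in Ctrl and 4.33 in Upf1-cKO, shares 31.9% of its exon bases with *Kif2a* on the opposite strand.

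Of 13 members of 60S assembly, 5 rose, 2 fell and 6 were not called, with a median of 0.12. *Rrp1b* (Entrez ID 72462, chr17:32036162-32062865, + strand), for a pre-60S factor, had 52.4, 76.4 and 76.1 normalised reads in Ctrl and 139, 136 and 140 in Upf1-cKO. The groups were well apart, with a log2 fold change of 1.03 (SE 0.12, limma adjusted p = 4.10e-06). *Noc3l*, for a partner in pre-60S transport, had 40.7, 48.8 and 57.0 in Ctrl and 78.2, 77.2 and 77.5 in Upf1-cKO (0.67, SE 0.11, adjusted p = 3.33e-05). *Gnl3*, which codes for the GTPase nucleostemin, had 107, 135 and 144 in Ctrl and 174, 186 and 190 in Upf1-cKO (0.52, SE 0.096, adjusted p = 0.000182). In these 3 genes no Ctrl library reached the lowest Upf1-cKO library.

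*Noc2l*, whose product pairs with those of other Noc family genes, was also higher (0.46, limma adjusted p = 0.000111), but 20.9% of its exon bases lie on exons of *Samd11* on the opposite strand. *Mdn1*, for the large ATPase that strips factors from pre-60S particles, was called higher (0.25, adjusted p = 0.0141) with overlapping groups, and lost the call without Upf1-cKO replicate 1 (0.23, adjusted p = 0.0796) or Upf1-cKO replicate 2 (0.22, 0.0831), after median centring (0.15, 0.148) and without the trend (0.25, 0.0975).

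*Bop1*, *Pes1* and *Wdr12* code for the 3 proteins of the PeBoW complex, which is needed for processing of 60S rRNA precursors. *Bop1* had 79.0, 101 and 94.5 normalised reads in Ctrl and 66.7, 74.2 and 65.0 in Upf1-cKO, without overlap (-0.40, SE 0.097, limma adjusted p = 0.0019). *Pes1* (0.04, 95% confidence interval -0.15 to 0.23) and *Wdr12* (0.12, -0.17 to 0.40) were not called. *Rrs1*, for a factor that brings the 5S particle to the pre-60S subunit, was called lower with overlapping groups (-0.35, adjusted p = 0.0164). It lost the call without Ctrl replicate 2 (-0.27, adjusted p = 0.0876), Ctrl replicate 3 (-0.28, 0.0643), Upf1-cKO replicate 1 (-0.34, 0.0575) or Upf1-cKO replicate 3 (-0.30, 0.0806), and without the trend (-0.35, 0.0859). *Nop16*, *Ebna1bp2*, *Ddx18* and *Nop2* were not called and lay between -0.22 and 0.24. The nucleolar helicase gene *Ddx21* was called lower with overlap (-0.35, adjusted p = 0.0144), and the call was lost without the same 4 libraries as for *Rrs1* (-0.26 to -0.34, adjusted p 0.0507 to 0.0677) and without the trend (-0.35, 0.0789).

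Members with snoRNA genes inside them were noted from the annotation alone. There were 6, namely *Nop56* with 5 snoRNA genes, *Nop58* with 4, *Ncl*, *Wdr43* and *Gnl3* with 3 each and *Dkc1* with 1, and 9 of these 19 snoRNA genes lay wholly in introns of every annotated host transcript. The other 10 lay in an exon of some host transcript, and only Gm23187 in *Nop56* lay in an exon of a transcript annotated as protein-coding. Of the 6 hosts 3 rose and none fell, with a median log2 fold change of 0.40, and of the 34 other members 7 rose and 9 fell, with a median of 0.06. Without Ctrl replicate 1 the median of the hosts was 0.25, and *Ncl* (-0.51) and *Dkc1* (-0.33) were called lower. Over all 215 protein-coding genes with a snoRNA gene inside, 26.0% were higher and 37.7% lower, with a median of -0.04. That set held 30 ribosomal protein genes, of which 24 were lower and 2 higher.

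*Wdr43*, a host whose product works beside that of *Wdr75*, had 130, 185 and 200 normalised reads in Ctrl and 217, 221 and 183 in Upf1-cKO. Upf1-cKO replicate 3 fell among the Ctrl values, and the log2 fold change of 0.29 was not called (95% confidence interval -0.06 to 0.64, limma adjusted p = 0.15). It was called without Ctrl replicate 3 (0.41, adjusted p = 0.023) and after scaling to total reads (0.49, adjusted p = 0.0202).

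Of the 19 snoRNA genes, 10 had rows of their own, with between 1 and 50 reads per library. None was called by limma, with 1 at an unadjusted p below 0.05, and none by the other tools run on recovered reads (edgeR, DESeq2 and voom). Inside *Nop56*, Snord57 had 15, 28 and 35 reads in Ctrl and 15, 25 and 27 in Upf1-cKO, with a log2 fold change of -0.25 (95% confidence interval -0.74 to 0.24). Snord110 had 7, 10 and 4 reads in Ctrl and 2, 8 and 12 in Upf1-cKO (-0.08, -0.59 to 0.42). The groups overlapped in both. Adding 1 to values as low as these shrinks any fold change on the log2 scale, so a smaller fold change on that scale is not by itself a smaller change. The log2 ratio of mean reads, without the added 1 or library scaling, was -0.22 for Snord57 and 0.07 for Snord110. Their host *Nop56* was at 1.35. In *Nop58*, at 0.64, the same ratio was 0.65 for Snord70 and 0.44 for Snord11.

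Inside *Nop58*, Snord70 had 14, 27 and 19 reads in Ctrl and 20, 50 and 24 in Upf1-cKO (0.29, -0.24 to 0.82), and Snord11 had 17, 11 and 17 in Ctrl and 22, 20 and 19 in Upf1-cKO (0.17, -0.28 to 0.62). Inside *Ncl*, which lay at -0.32, Snora75 had 23, 16 and 23 reads in Ctrl and 31, 37 and 32 in Upf1-cKO (0.37, -0.07 to 0.80), without overlap, and Snord82 had 19, 13 and 39 in Ctrl and 24, 32 and 42 in Upf1-cKO (0.26, -0.27 to 0.78). The snoRNA with the unadjusted p below 0.05 was Snord19 in *Gnl3*, with 8, 18 and 19 reads in Ctrl and 5, 9 and 9 in Upf1-cKO (-0.55, limma adjusted p = 0.0528), opposite in sign to its host, and without Ctrl replicate 1 it was called lower (-0.75, adjusted p = 0.0127). Over all 88 snoRNA rows, 2 were higher and 10 lower. Molecules as short as these are recovered poorly by libraries of fragmented RNA, and a read in a snoRNA can also come from the unspliced host. Whether reads in the 10 snoRNA genes that lie in a host exon, Snord57 and Snord19 among them, were counted for the host, the snoRNA or neither is not given in the sources used here.

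**Figure D5:**
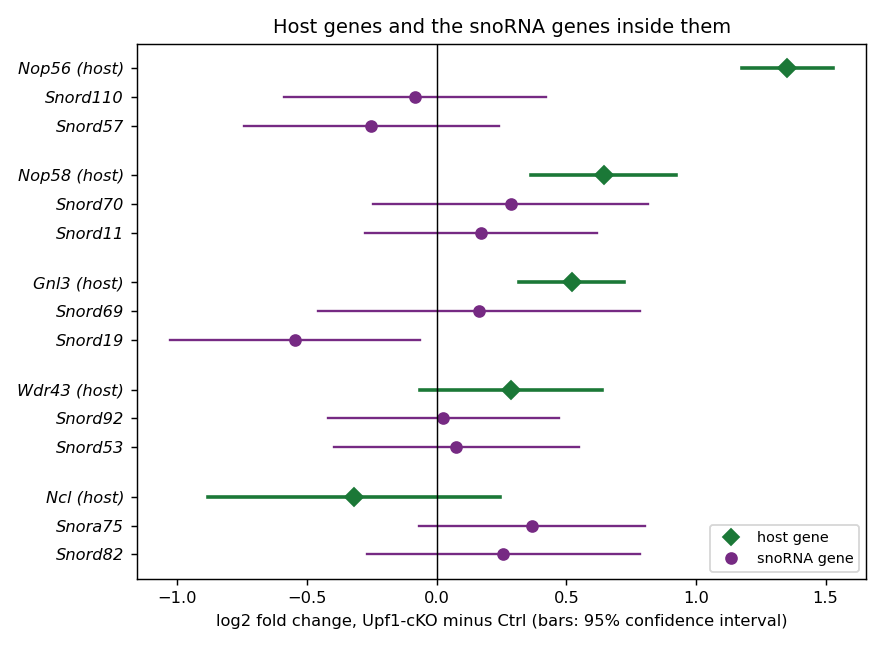
Log2 fold change (Upf1-cKO minus Ctrl) with its 95% confidence interval for 5 host members (diamonds) and the 10 snoRNA genes inside them that had rows (circles). The interval of Snord19 lies wholly below 0 and those of the other snoRNAs include 0, on a log2(value + 1) scale that shrinks the changes of the snoRNAs, which have few reads, more than those of the hosts.

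Because UPF1 acts in NMD, the annotated transcripts of the members were read as well, a split chosen after the values were seen. GENCODE M21 lists at least 1 transcript of the NMD class for 13 members. Of these 4 rose (*Nop56*, *Nop58*, *Rrp1b* and *Gnl3*), 1 fell (*Nolc1*) and 8 were not called, with a median log2 fold change of 0.18. Of the 27 members without one, 6 rose and 8 fell, with a median of -0.18. Over all protein-coding genes, 37.1% of those with an NMD transcript were higher and 19.5% lower, and of those without one 26.2% were higher and 27.9% lower.

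All 27 NMD transcripts of the members have their stop codon at least 50 bases upstream of the last exon junction, which is how the class is defined, and none of the 62 protein-coding ones with a listed stop codon does. Protein-coding transcripts without a listed stop were not examined. The last 30 coding bases of the NMD transcripts are shown for the 3 most raised members that have any, with the stop codon in capitals. Positions are those of the stop codon on GRCm38, + strand, and transcripts that share a stop are shown once.
*Nop56*, stop codon at chr2:130277494-130277496: ggggaagcgagccctgaagacaaggggTAA
*Nop56*, stop codon at chr2:130276650-130276652: ggtcagtgcggagcgcggcagcctgtaTAA
*Nop56*, stop codon at chr2:130278428-130278430: gaggagtgtgagggaggagataggtgcTGA
*Nop58*, stop codon at chr1:59692557-59692559: gatacagcagaagcattagcagtgatcTAA
*Nop58*, stop codon at chr1:59703162-59703164: gctttggctgtactagaactcactctaTAG
*Nop58*, stop codon at chr1:59706689-59706691: tctggctatcagatacgacgcttttggTGA
*Nop58*, stop codon at chr1:59706733-59706735: caatgggaattgagaacagagccaaatTAG
*Rrp1b*, stop codon at chr17:32046153-32046155: tcccctcaggaaggggcagcgggcactTAG
*Rrp1b*, stop codon at chr17:32048586-32048588: tgtttattcagaccttctggcagaccaTGA
*Rrp1b*, stop codon at chr17:32051703-32051705: ccctcagccacacgctggtacagactgTAG
These stops lie between 60 and 858 bases upstream of the last junction of their NMD transcripts. The stops of *Nop56* at chr2:130276650-130276652 and chr2:130278428-130278430 are also those of transcripts annotated as protein-coding, with the same 30 bases, where they lie less than 50 bases upstream of the last junction or past it. In *Nop58*, the stop at chr1:59692557-59692559 lies inside the snoRNA gene Gm26293 printed above, so that part of the snoRNA gene is coding exon in that transcript. Values per gene do not show which transcripts carried the reads, so a rise of the NMD transcripts and a rise of the coding ones could not be separated.

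Other genes of the same pathways were taken from lists written by role, to be read against the 27.7% of all genes called higher and the 25.0% called lower. Over these lists together, *Myc*, *Mycn* and *Max* included, 35 genes were higher and 25 lower, which became 30 and 42 with median centring and 56 and 10 after scaling to total reads. Of 10 snoRNP assembly factors with rows 3 rose and 4 fell, among them *Snu13* (log2 fold change -0.70), the box C/D protein that binds the guide RNA first. Of the genes for the R2TP complex, which loads Nop58 and related proteins, *Rpap3* was higher (0.76), and *Ruvbl1* (-0.35, limma adjusted p = 0.0125), *Ruvbl2* (-0.22, 0.0323) and *Pih1d1* (-0.28, 0.0473) were lower. *Snu13* had 18.9, 23.5 and 18.3 normalised reads in Ctrl and 14.6, 9.96 and 11.8 in Upf1-cKO, so that of the 4 box C/D core proteins, counting it with the 3 members, 2 rose and 1 fell. Of 14 other RNA polymerase I subunits and factors 4 rose and 2 fell, and the 3 with the largest changes all rose, namely *Taf1a* (1.31) and *Taf1d* (1.28), subunits of the promoter selectivity factor, and the termination factor gene *Ttf1* (0.92).

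Of 41 other small subunit processome genes 13 rose (31.7%) and 5 fell (12.2%), or 11 and 10 with median centring, with *Aatf* (0.94) and *Utp25* (0.87) highest and *Utp3* (-0.77) lowest among those called. Of 45 other 60S assembly genes 11 rose and 11 fell (24.4% each). The largest changes among these were *Sbds* (1.25) and *Efl1* (1.09), whose products together release Eif6 from the nascent 60S subunit, and *Nle1* (1.19), whose product is a substrate of Mdn1. *Sbds* had 41.2, 51.2 and 51.5 normalised reads in Ctrl and 109, 116 and 121 in Upf1-cKO, and *Efl1* had 41.3, 42.8 and 45.8 against 93.5, 90.3 and 95.3, so that neither overlapped between groups. Of 15 genes of the RNA exosome and its cofactors, which trim pre-rRNA and snoRNA ends, 3 rose and 3 fell, with *Exosc3* (-1.04) opposite to *Dis3* (0.85) and *Exosc2* (0.84).

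MYC is the best known activator of these genes and binds CACGTG. *Myc* was not called, with 119, 155 and 146 normalised reads in Ctrl and 138, 181 and 139 in Upf1-cKO (0.12, 95% confidence interval -0.13 to 0.37), nor was its partner *Max* (-0.06), while *Mycn* rose from 1.65 ± 0.094 to 3.72 ± 0.254 (SD, n = 3 each, log2 fold change 0.83, limma adjusted p = 0.00177). In the RefSeq window from 250 bases before to 50 bases after the start site, which was given for 35 members, CACGTG (the same on both strands) stood in 7 (20%), against 8.09% of 27025 genes with such a window. Of these 7, *Mdn1* was called higher, *Mybbp1a* lower, and *Wdr43*, *Utp20*, *Ltv1*, *Nop2* and *Pes1* were not called. The share of 8.09% was taken over all genes with a window, whether or not they were measured here.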

How the data were processed

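RNA-seq was done on early LPre-B cells of 3 Ctrl and 3 Upf1-cKO libraries. Per the study's methods, cells were sorted, ribosomal RNA was depleted, and single-end reads were mapped to mm10 (GRCm38) with HISAT2 and counted with featureCounts, ignoring strand. The submitters' processing notes also name cutadapt 4.0, featureCounts 2.0.1 and limma 3.48.0. The annotation used for counting is not given in the sources used here. For each gene, the table the authors deposited holds a linear signal in each library, and whole reads plus 0.5 were recovered from 100% of the values (within 0.05 of a whole number). These were analysed as normalised reads, and low genes had been removed before deposition.

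The members and all gene lists were chosen with earlier results of these data known. Members were matched by Entrez ID through RefSeq annotation of GRCm38.p6, and snoRNA genes, exons, transcript classes and sequences came from GENCODE M21 of the same build. The groups were compared on log2(value + 1) in limma 3.58.1 (R 4.3.3), with an intensity trend, robust variance estimates and no term but the group, and p-values were adjusted by Benjamini-Hochberg over 13426 genes. Fold changes are on that scale, which understates changes of low genes. All adjusted p-values are limma's unless another tool is named. On simulated data of 13426 genes, 82% of genes changed by 1 on the log2 scale were recovered, 99% of those changed by 2, and 0.076% of unchanged genes were called. The simulation changed 100 genes by 1 and 100 by 2, whereas 52.7% of genes were called in the data. Smaller changes, such as those of most called members, were not simulated. These shares therefore cannot be carried over to the calls reported here. Subunit ratios were compared by an exact two-sided permutation test (scipy 1.17.1).

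Values in every library were given for the 7 core snoRNP proteins, the 4 chaperones and scaffolds, members with a snoRNA gene inside, and, among called members, the 5 that rose most and the 5 that fell most. Other members were given by counts and ranges, with up to 3 examples a role by largest absolute change, and from each other list up to 3 called genes of largest change and *Myc* were named. *Polr1a*, *Polr1b*, other called members, *Snu13*, the R2TP genes and members not called were named beside these to account for every gene. Alternatives were a replicate block, no trend, 3 fits to recovered reads (voom, DESeq2 1.42.0 and edgeR 4.0.16), median centring, scaling to total reads, a pseudocount of 0.1 or none, a mean log2 value of at least 3, and leaving out each library. On the recovered reads, edgeR called 3651 genes higher and 3343 lower, against 3725 and 3351 by limma. The study describes its replicates as independent biological ones, and the labels do not name the mouse behind each library.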

Additional observations from a re-analysis of the deposited data

How the results depend on the processing

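No result changed direction among those given a call, and of 400 fits of single members under the 10 alternatives other than leaving out a library, 374 stayed called or not called as reported, 14 gained a call and 12 lost one. The 12 were *Mdn1* with median centring, *Mybbp1a*, *Rrs1*, *Mdn1* and *Ddx21* without the trend, and *Npm1*, *Nolc1*, *Mybbp1a*, *Bysl*, *Rrs1*, *Bop1* and *Ddx21* after scaling to total reads. After scaling to total reads, 19 members were called higher and 2 lower, the members' median became 0.29, 56 of the listed pathway genes were higher and 10 lower (35 and 25 as reported), and all genes split into 5172 higher and 1936 lower. Median centring called 42 pathway genes lower. Leaving out one library gave 5 to 17 members lower, a members' median from -0.069 to 0.14, 19 to 40 pathway genes lower, and 0 to 1 snoRNA rows lower. Among the 10 snoRNA rows, 1 was called higher without the trend and after scaling to total reads, and 1 lower under the replicate block, without the trend and with median centring. The *Upf1* row lost its call without the trend (0.31, adjusted p = 0.0685) and with median centring, where its fold change was also lower (0.20, adjusted p = 0.0645), and it ranged from 0.19 to 0.37 when one library was left out. The cause of these shifts was not tested.

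The submitters' sample names carry adjacent numbers for the Ctrl and Upf1-cKO libraries of the same replicate number. Deviations of same-numbered libraries from their group means correlated at 0.08, -0.03 and -0.02 over all genes. The main fit did not take the numbers as pairs, and such a correlation cannot show whether the libraries were handled in pairs. With the replicate number as a block, 10 members were higher and 10 lower, the addition being *Ltv1* (adjusted p = 0.0304). The snoRNA rows had few reads, at most 50 per library, and their intervals spanned about 1 log2 unit. Intervals were about as wide for *Ncl* (-0.88 to 0.25) and *Npm1* (-1.27 to -0.17), which had many more reads. With 3 libraries per group, 0.1 is the smallest p of an exact permutation test.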

Other observations

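Among the other 60S assembly genes, *Lsg1*, which codes for the GTPase that releases the export adaptor Nmd3, was higher, with 72.5, 85.4 and 86.2 normalised reads in Ctrl and 105, 102 and 101 in Upf1-cKO (log2 fold change 0.34, limma adjusted p = 0.00288). *Nmd3* (0.04, 95% confidence interval -0.19 to 0.27) and *Eif6* (-0.08, -0.27 to 0.11), whose products are released from the 60S subunit, were not called. These 3 genes were chosen after their values were seen. Of the 15 exosome genes 20% were called higher and 20% lower, against 27.7% and 25.0% of all genes. *Exosc3*, for a cap subunit, had 49.0, 56.0 and 68.2 normalised reads in Ctrl and 26.5, 31.2 and 24.8 in Upf1-cKO, and *Exosc2*, for another cap subunit, had 64.0, 86.6 and 73.8 against 137, 131 and 133. Both are given for the size of their change, and in neither did the groups overlap.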
